A study of Homo sapiens
Mus musculus with 5 samples.

Results

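The RNA of lung tumors seeded from human cancer cells in mice was divided here, gene by gene, into what the cancer cells and what the lung host supplied. The tumors came from H2030-BrM3, a derivative of the human lung adenocarcinoma line H2030 selected for growth in the brain, placed into the lungs of athymic nu/nu mice through the trachea. These mice lack a thymus and with it most T cells, and a single cell line stands for the cancer. Of the 5 libraries of the series the 2 lung tumors, called lung tumor 1 and lung tumor 2, are described, and the 3 brain tumors enter only where the number of reads behind a value was worked out and where it was asked whether a mouse gene is counted at all. Both received no other agent that the labels name, and the labels do not say whether the lung tumors came from separate animals or how much lung around the tumor was taken.

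Each library had been split by species into values for 25524 human and 24628 mouse genes in RPKM, reads scaled to the length of the gene and to all reads of that species in the library. The comparison is between a human gene and the mouse gene of the same symbol inside 1 library. Of the symbols used once in their table, 13244 occurred in both, and these pairs are the members; 12132 human and 11348 mouse symbols had no partner. The difference is given as log2(RPKM + 1) of the human gene minus that of the mouse gene, and a pair was called cancer-higher or host-higher in a library when this difference was 3 or more in that direction, which is 8-fold where both values are well above 1. Since both tables were scaled separately and a library holds 1 value a gene and species, no test was made across them.

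In a xenograft the species of a transcript marks its compartment. Cancer cells are human, while blood vessels, fibroblasts, leukocytes and the remaining lung epithelium are mouse. In carcinomas the fibrillar collagens of the stroma are mostly laid down by fibroblasts, whereas epithelial cells contribute laminins and the integrins and desmosomes that hold them to the basement membrane and to each other. Macrophages of the lung bring complement component C1q, cathepsins and scavenger receptors, and alveolar cells bring surfactant proteins.

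The libraries held very different amounts of host RNA. Lung tumor 1 had 6541037 human and 231156 mouse reads, so that 96.6% of its reads were human. Lung tumor 2 had 3733689 human and 5295159 mouse reads, 41.4% human. In lung tumor 1 a single mouse read was worth 2.63 RPKM for the median mouse gene (lung tumor 2: 0.115), and 11897 mouse genes were listed at 0, against 4919 in lung tumor 2. Every value is therefore given for each library apart. As with any bulk sample, fewer cells of a type and less RNA per cell cannot be told apart.

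Cancer and host each led at many genes in both tumors. Over the 13244 pairs, 1482 (11.2%) were cancer-higher and 1076 (8.12%) host-higher in lung tumor 1. In lung tumor 2 these were 1288 (9.73%) and 1267 (9.57%). Called the same way in both tumors were 848 cancer-higher pairs (6.4%) and 706 host-higher pairs (5.33%), and below "called" without a library means this. The cancer-higher set was 57.2% of the calls of lung tumor 1 and 65.8% of those of lung tumor 2; the host-higher set was 65.6% and 55.7%. The median difference over all pairs was 0.24 in lung tumor 1 and 0.17 in lung tumor 2, and over pairs with at least 1 RPKM on both sides it was 0.41 and 0.56.

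The balance between both directions depended on how the tables were scaled to each other. Cancer-higher pairs were 54.6% of the calls as deposited, 35.8% (535 against 960) after those medians were taken off, and 43.2% (637 against 838) with both tables scaled to the same sum. In RPM, reads scaled to all reads of the species with no gene length and compared as log2(RPM + 1), they were 37.2% (506 against 856). The reads required mattered too: with at least 10 on the higher side in each library, cancer-higher pairs were 64.2% (847 against 473). This filter is not even between the directions. In lung tumor 1 a read is 2.63 RPKM for the median mouse gene and 0.145 for the median human gene, so it bears more on host-higher calls. Ranks free of scale gave fewer calls: 68 pairs stood over 50 percentile points higher in the human than in the mouse table in both tumors, and 222 the reverse. The shares of all pairs against which each list count below stands are 6.4% cancer-higher and 5.33% host-higher.

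**Figure D1:**
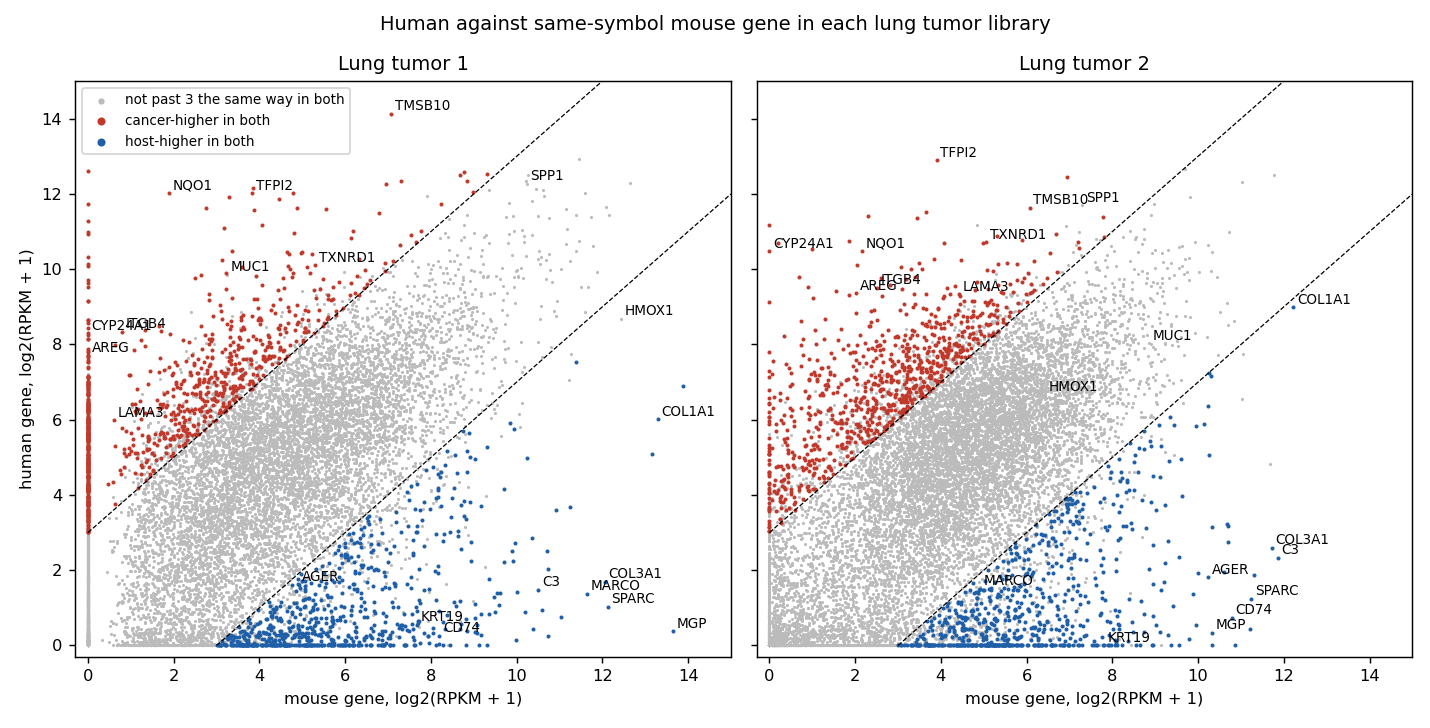
Each point is 1 of the same-symbol gene pairs, with log2(RPKM + 1) of the mouse gene on the x axis and of the human gene on the y axis, lung tumor 1 left and lung tumor 2 right. Dashed lines mark a difference of 3 either way; red and blue points are past the upper or lower line in both libraries, and matrix genes such as MGP, SPARC and COL3A1 lie at the lower right of both panels while NQO1 and TFPI2 lie at the upper left.

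Calls at the edge of the threshold show how small the step is there. Just inside it on the cancer side were TMEM91, with differences of 5.28 and 3.00 in lung tumors 1 and 2, and LRRC75B, with 3.96 and 3.00; just outside were SLC25A5, a mitochondrial ADP/ATP carrier, with 3.20 and 2.99, and ERCC6, with 3.36 and 2.99. On the host side DAB2 (-4.79 and -3.0017) and TMEM47 (-3.0038 and -4.81) were just inside, and IER3 (-4.19 and -2.9998) and ATP2C1 (-2.9997 and -3.04) just outside.

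The gene lengths behind the RPKM differ between the species for the same symbol: the implied lengths were over 2-fold apart for 39.9% of pairs. With RPM in place of RPKM 568 of the 706 host-higher pairs (4.29% of all pairs) and 380 of the 848 cancer-higher pairs (2.87%) were called on both scales. A cancer-higher call also needs a mouse gene that the assay can count. For 428 of the 848 the mouse gene stayed under 10 RPKM in each of the 4 libraries with more mouse reads than lung tumor 1, which are lung tumor 2 and the 3 brain tumors, and 125 pairs (0.944% of all pairs) were cancer-higher on both scales with a mouse gene that reached 10 RPKM in at least 1 of them. For 69 of these it did so in a brain tumor only, and for 56 in lung tumor 2. The 125 pairs still include genes that every cell uses, such as GAPDH, RPL3, RPL28 and RPL36. Mouse Gapdh was at most 18.3 RPKM in these libraries. Reaching 10 RPKM therefore does not show that a mouse gene was counted in full. The set of 125 pairs and the unit of RPM were chosen after the values were seen. With the lower side of a pair raised to the level of 3 reads where it was below, 576 pairs (4.35%) were cancer-higher and 643 (4.86%) host-higher.

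The source of a gene's reads, as opposed to its level within a species, followed the amount of host RNA. In lung tumor 1, 9976 pairs had at least 20 reads over both species, and the cancer gave over 90% of the reads of 8425 of them (84.5%). Even there 350 pairs (3.51%) drew over 50% of their reads from the host, and 270 of these were among the host-higher calls. In lung tumor 2 the host gave over 50% of the reads of 7092 of 11618 pairs (61.0%), and over 90% for 2011 (17.3%), while the cancer gave over 90% for 637 (5.48%). Intervals on shares below are 95% Wilson intervals and cover counting error only, since reads without molecular identifiers are not independent molecules.

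Many matrix genes stood far higher in the host than in the cancer cells. MGP, the matrix Gla protein that inhibits calcification, had the largest difference averaged over both tumors among the called genes named by rule: the mouse gene was at 12765 RPKM in lung tumor 1 and 1279.8 in lung tumor 2, and the human gene at 0.298 and 0.259. In reads, lung tumor 1 had 2 human and 2017 mouse reads of MGP (human share 0.0991%, interval 0.0272 to 0.360%), and lung tumor 2 had 1 and 4610 (0.0217%, 0.00383 to 0.123%). SPARC, a collagen-binding glycoprotein, was next on the host side, with 4484 and 2424 RPKM in mouse against 1.04 and 1.36 in human, differences of -11.10 and -10.01. By rank within its table MGP stood at percentile 99.99 and 99.84 of the mouse genes and at 35.88 and 32.05 of the human genes.

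Summed reads, unlike the counts of genes, differed widely between the tumors. Human reads were 39.9% of all collagen reads in lung tumor 1 and 4.48% in lung tumor 2, and 83.8% and 14.3% of the reads of matrix glycoproteins and proteoglycans, where human SPP1 alone had 27348 and 10546 reads.

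Of 24 collagen genes, 11 were host-higher and 1 was cancer-higher (10 and 0 also on RPM), with a median difference of -4.99 in lung tumor 1 and -3.52 in lung tumor 2. COL3A1, a fibrillar collagen of loose connective tissue, was at 4244 and 3365 RPKM in mouse and at 2.23 and 5.05 in human. COL1A2, a chain of type I collagen, was at 1699 and 936 RPKM in mouse and 0.181 and 1.57 in human. The human values of COL3A1 and COL1A2 were near the floor in both tumors. The other chain of type I collagen, COL1A1, was not as one-sided: the cancer had 63.6 RPKM in lung tumor 1 and 508 in lung tumor 2, against 10035 and 4765 in the host, and human reads were 20.4% (18.3 to 22.7%) and 9.79% (9.27 to 10.3%) of the gene's total. Its difference was -7.28 and -3.23 in RPKM, and in RPM -6.75 and -2.70, the last short of the threshold.

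Basement membrane collagen divided by chain. COL4A1 and COL4A2, the chains found in nearly all basement membranes, were host-higher: COL4A1 was at 2111 and 2537 RPKM in mouse against 0.695 and 2.66 in human. COL4A5, a chain of a more restricted network, was the cancer-higher collagen, at 115 and 307 RPKM in human against 3.44 and 29.5 in mouse. Its difference was 4.70 and 3.33 in RPKM but 2.35 and 0.74 in RPM, so that it was not called on that scale. COL4A3 and COL4A4, whose mouse genes were listed at 0 in lung tumor 1, were at 234 and 40.8 RPKM in mouse in lung tumor 2, with human values of 0 and 0.105.

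Of 19 paired matrix glycoproteins and proteoglycans, 11 were host-higher, all of them also on RPM, and 0 were cancer-higher. Fibronectin (FN1) was at 828 and 1661 RPKM in mouse and 3.63 and 5.67 in human, and elastin (ELN) at 61.3 and 236 in mouse with 0 human reads in both libraries. The glycoproteins that the cancer did supply were short of a call in lung tumor 1. SPP1 (osteopontin), a secreted ligand of CD44 and integrins, was at 4959.7 and 3330.0 RPKM in human and 1202 and 156 in mouse. Tenascin C (TNC) was at 120.1 and 322 RPKM in human and 35.7 and 27.0 in mouse. For both the difference in RPKM passed 3 only in lung tumor 2 (4.41 and 3.53, against 2.04 and 1.72). In RPM the differences in lung tumors 1 and 2 were 1.27 and 3.65 for SPP1 and -0.64 and 1.20 for TNC. On that scale TNC passed 3 in neither tumor.

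Laminins, the sheet-forming glycoproteins of basement membranes, were shared between the compartments, with list medians of 1.39 in lung tumor 1 and 0.17 in lung tumor 2, the latter -0.39 after centring. Of 14 paired genes of the laminin and basement membrane list 2 were cancer-higher and 2 host-higher. LAMA3, the alpha chain of the epithelial laminin of hemidesmosomes, was at 62.5 and 641 RPKM in human and 0.524 and 20.5 in mouse, and agrin (AGRN) was at 528 and 946 in human and 19.0 and 64.8 in mouse. In RPM LAMA3 differed by 3.97 and 2.33 and AGRN by 1.61 and 0.69, so that neither was called on both scales. The host-higher genes were LAMA4, a laminin chain of vessels and muscle, with 0 human reads in both libraries and 35.8 and 57.9 RPKM in mouse, and nidogen 1 (NID1), at 23.0 and 45.8 RPKM in mouse and at or near 0 in human. LAMB3, which pairs with LAMA3, was at 79.8 and 63.6 RPKM in human, while its mouse gene was listed at 0 in lung tumor 1 and stood at 92.9 in lung tumor 2.

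**Figure D2:**
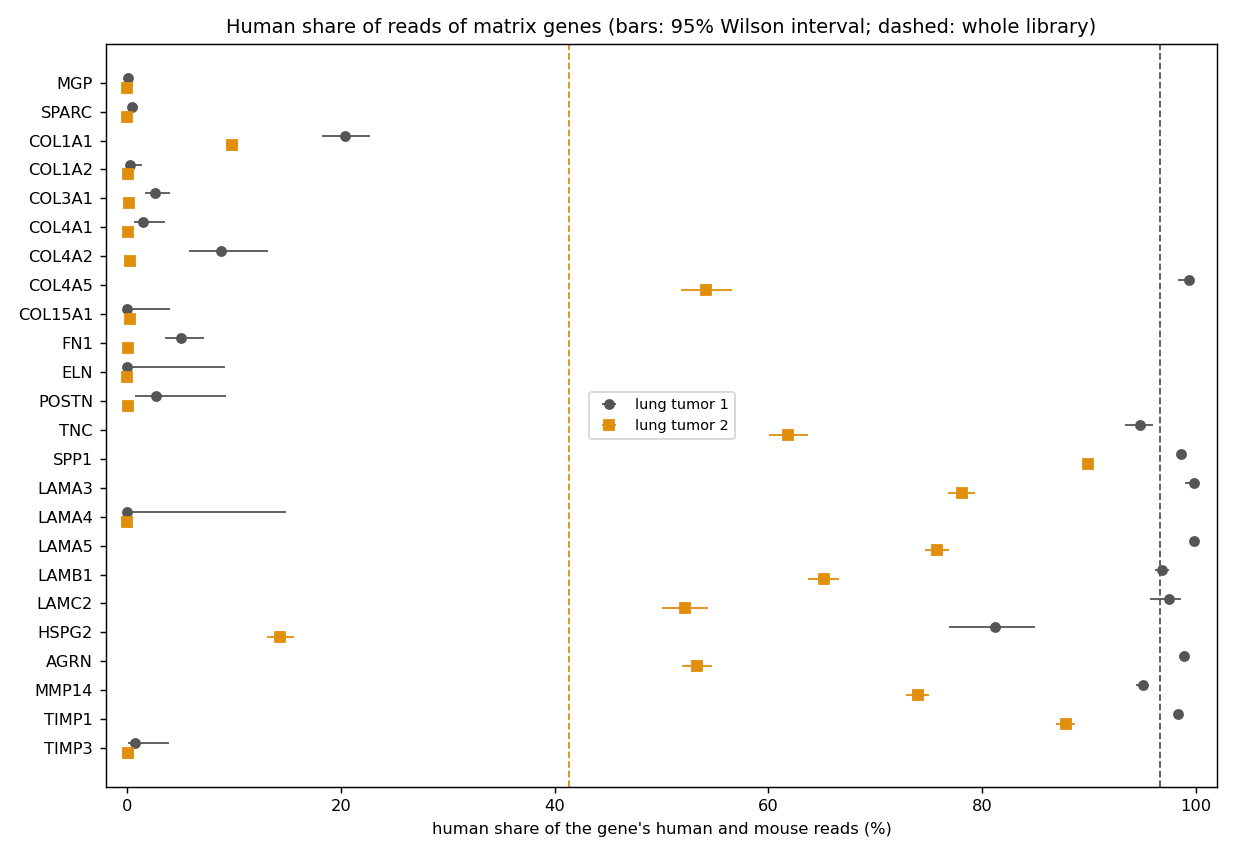
The x axis is the human share of a gene's human and mouse reads in percent for 24 matrix genes, circles for lung tumor 1 and squares for lung tumor 2, with 95% Wilson intervals as bars. Dashed lines mark the human share of all reads, 96.6% and 41.4%; MGP, SPARC, COL3A1, FN1 and TIMP3 lie near 0 in both libraries, far left of both lines, and SPP1 and TIMP1 lie to the right of them.

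Matrix proteases and their inhibitors divided between the compartments. Of 23 paired genes 6 were host-higher and 0 cancer-higher. Among the host-higher ones were the inhibitor TIMP3 (289.9 and 551 RPKM in mouse, 0.0325 and 0.283 in human) and the protease MMP9 (191 and 37.5 against 4.29 and 0.335). TIMP1 was abundant in both species, at 3589 and 2049 RPKM in human and 1302 and 147 in mouse. So was MMP14, the membrane-anchored collagenase, at 1227 and 2133 in human and 1439.8 and 425 in mouse. The urokinase PLAU differed by -4.38 in lung tumor 1 and by 1.98 in lung tumor 2, the latter short of the threshold. In RPM its difference was -5.87 and 0.42, with 130 human and 136 mouse reads in lung tumor 2.

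All paired macrophage and myeloid markers were host-higher, 11 of 11 genes (17 listed, 5 with a mouse row only and 1 with a human row only), on RPKM and on RPM, with median differences of -7.60 and -5.69. The background is 5.33% of all pairs, and markers of mouse cell types were listed because human cells of that kind are not in the tumor, so their side checks the split of reads by species. CD68, a lysosomal protein of macrophages, was at 523 and 70.6 RPKM in mouse with 6 and 2 human reads in lung tumors 1 and 2. MARCO, a scavenger receptor of alveolar macrophages, was at 3210.3 RPKM in lung tumor 1 and 29.2 in lung tumor 2 in mouse, and at 1.58 and 1.83 in human. The whole list summed to 40 and 36 human reads, against 3547 and 12802 mouse reads.

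Most vessel and fibroblast markers were on the host side as well. Of 9 paired endothelial genes 7 were host-higher; PECAM1, the junction protein CD31, was at 36.6 and 284 RPKM in mouse and 0.258 and 0.898 in human. The exceptions were CALCRL and EGFL7. CALCRL differed by -2.30 and -7.01 in RPKM, and by -4.47 and -9.37 in RPM, past the threshold in both tumors on that scale. EGFL7 was also present in the cancer cells, at 261 and 84.5 RPKM in human against 123 and 522 in mouse. Of 9 paired fibroblast genes 6 were host-higher, among them PDGFRA at 159 and 359 RPKM in mouse and 0.468 and 0.272 in human. The other 3 were fibulin 1 (FBLN1), FAP and TCF21. FBLN1 was present in both compartments, at 52.6 and 67.2 RPKM in human and 24.1 and 66.4 in mouse. Of 10 pericyte and smooth muscle genes 4 were host-higher: ACTA2, TAGLN, PDGFRB and desmin (DES), the last at 575 and 124 RPKM in mouse and 0.204 and 0 in human. NOTCH3 was cancer-higher in lung tumor 1 alone in RPKM (3.40 and 1.59), and in RPM its difference was -0.09 and -1.96.

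Complement and antigen presentation leaned to the host, with list medians of -4.35 and -3.01 for complement and -3.32 and -2.57 for antigen presentation. C3, the central component of complement, was at 1449 and 3718 RPKM in mouse and 1.80 and 4.04 in human, and 5 of 11 paired complement genes were host-higher. Among the host-higher ones beside C3 were the regulator SERPING1, properdin (CFP) and the receptor C3AR1. The cancer cells had more of the regulator CD55, at 66.5 and 145 RPKM against 20.4 and 52.6 in mouse, and clusterin (CLU), at 2692 and 874 against 863 and 569. CD74, the invariant chain of class II antigen presentation, was at 291 and 1768 RPKM in mouse and 0.189 and 0.658 in human. B2M, the light chain of class I molecules, was made by both, at 133 and 394 RPKM in human and 2392 and 1841 in mouse, with differences of -4.16 and -2.22. In all, 3 of 9 paired antigen presentation genes were host-higher and 1, the peptidase ERAP1, was cancer-higher (71.3 and 229 RPKM in human, 7.35 and 22.02 in mouse). In RPM ERAP1 differed by 0.59 and 0.72 and was not called.

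Other host-higher genes with large differences were not tied to 1 cell type. TXNIP, an inhibitor of thioredoxin and of glucose uptake, was at 1004 and 1282 RPKM in mouse with 1 and 0 human reads. IGFBP7, a secreted binder of insulin-like growth factors, was at 1336 and 626 in mouse and 0.359 and 0.208 in human. TNS1, UCP2, TMEM176B, NBL1, COL15A1 and LTBR complete the 15 with the largest averaged differences. Some host-higher genes are ones that epithelial cancer cells commonly express, with human values near 0 here: the cytokine MIF was at 0.254 and 0 RPKM in human, and KRT19, a keratin of simple epithelia, at 0.458 and 0 against 205 and 222 in mouse. Over the 706 host-higher pairs the human gene was listed at 0 in both libraries for 101. Whether such values reflect the cells or the assignment of reads to genes was not tested.

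The mouse RNA of the 2 tumors differed in makeup. That of lung tumor 1 held more macrophage and hypoxia transcripts, and that of lung tumor 2 more alveolar, airway, endothelial and lymphocyte transcripts. With 1 library each, these differences have no replicate check. Of 12 mouse genes of alveolar type 2 cells that reached 10 RPKM in either library, 12 were higher in lung tumor 2, 10 of them by 3 or more on the log2(RPKM + 1) scale. Of all 10036 mouse genes at that level 5614 were higher in lung tumor 2, 814 of them (8.11%) by 3 or more, and 327 (3.26%) were higher in lung tumor 1 by as much. A gene that reached 10 RPKM in 1 library only is bound to be higher in that library, here and in the counts that follow.

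Surfactant protein C (Sftpc), the defining product of type 2 cells, was at 152 RPKM (29 reads) in lung tumor 1 and 14030.4 RPKM (61012 reads) in lung tumor 2. Scgb1a1, the secretoglobin of airway club cells, was at 708 and 44856 RPKM, and Ager, a membrane receptor of type 1 cells, at 28.8 and 1198. Endothelial genes were higher in lung tumor 2 for 15 of 16, with a median of 3.23 (lung tumor 2 minus 1). Macrophage and myeloid genes were higher in lung tumor 1 for 15 of 16, with a median of -1.91; the exception was the pan-leukocyte gene Ptprc, at 24.9 and 76.2 RPKM. The macrophage lysozyme Lyz2, which is not on the list, was also higher in lung tumor 2, at 2777 and 4216. C1qa, a chain of complement C1q, was at 2889.7 and 236 RPKM, and Saa3, an acute-phase serum amyloid with no human partner here, at 12174 and 671.

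Fibroblast genes went both ways. Col1a1 was higher in lung tumor 1 and Col3a1 by less, whereas Inmt, an enzyme of resident lung fibroblasts, was at 29.6 RPKM in lung tumor 1 and 1854 in lung tumor 2, and Mfap4, an elastic-fiber protein, at 9.504 and 536. Hypoxia-induced genes, which cells switch on at low oxygen, were higher in the host of lung tumor 1 for 11 of 15: the prolyl hydroxylase Egln3 was at 169 and 6.81 RPKM, and the crosslinking enzyme Lox at 278 and 54.1. The human genes of that list, measured in the same libraries, were higher in lung tumor 1 for 10 of 14, with a median of -0.21 against -1.66 in mouse. Heme oxygenase Hmox1, which macrophages also express, was at 5541 RPKM in the host of lung tumor 1 and 85.1 in that of lung tumor 2, with 411 and 101 in the cancer cells.

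Muscle transcripts differed in kind. Skeletal actin Acta1 was at 406 RPKM in lung tumor 1 and 0.258 in lung tumor 2, and creatine kinase Ckm at 294 and 8.08. The cardiac myosin Myh6 was at 0 and 286 RPKM, the other way round, as was the cardiac actin Actc1, at 4.75 and 103. T cell genes were low: Cd3d, Cd3e and Cd3g, subunits of the T cell receptor complex, had 0 reads in lung tumor 1 and stood at 0.559, 1.03 and 5.83 RPKM in lung tumor 2. Natural killer genes were present in lung tumor 2, with Ncr1 at 13.0 RPKM and Prf1 at 11.6, and listed at 0 in lung tumor 1, where 3 reads, the upper limit that a count of 0 allows, are 7.90 RPKM for a mouse gene of median length. The depth of mouse reads and the length of the genes moved with these differences. Over the 1989 mouse genes (1 of 5) with the longest implied lengths the median of lung tumor 1 minus lung tumor 2 was -0.90, and over as many with the shortest 0.25 (-0.70 and -0.30 in human genes). Their part in the differences between the tumors was not tested.

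**Figure D3:**
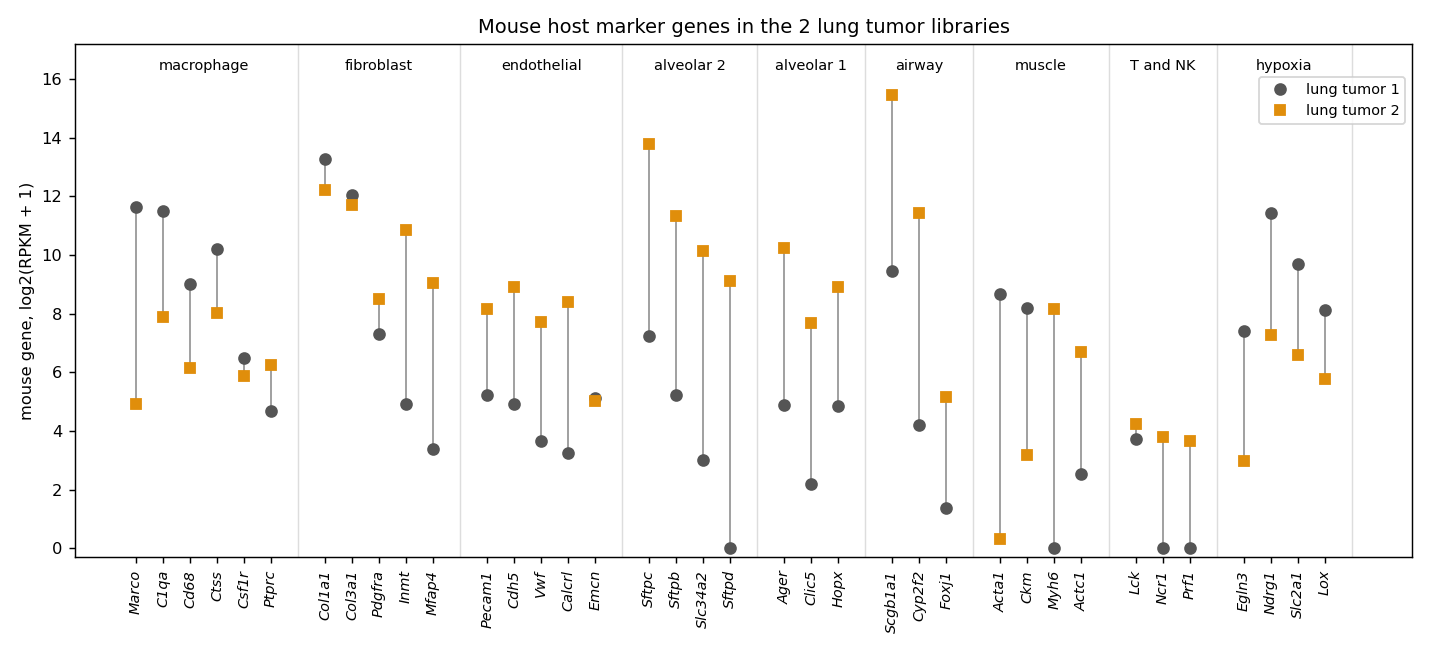
The y axis is log2(RPKM + 1) of single mouse genes, grouped by the cell type or state they mark, with a circle for lung tumor 1 and a square for lung tumor 2. Squares lie above circles for alveolar, airway and most endothelial genes, and circles lie above squares for Marco, C1qa, Cd68 and the hypoxia genes shown.

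Many of the most one-sided cancer-higher genes were genes that every cell uses. Among the 15 with the largest averaged difference, 9 were of this kind: GAPDH, ACTG1 and the ribosomal proteins RPS29, RPS6, RPL19, RPL29, RPL24, RPS16 and RPL35A. Mouse Gapdh, the glycolytic enzyme often used as a reference, was listed at 0 RPKM in lung tumor 1 and 3.93 in lung tumor 2, and at most 18.3 in the 4 libraries with more mouse reads, while the human gene was at 6302 and 2724. These are transcripts of practically every cell, and other ribosomal protein genes were abundant in the same mouse table, such as Rps3 at 3396 and 447 RPKM. Of 22 ribosomal protein genes 12 were called cancer-higher, and for 9 of these the mouse gene stayed under 40 RPKM in each deeper library. The cause of the low mouse values was not tested, and these calls are given as a description of the tables.

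The remaining 6 of the 15 were CYP24A1, NQO1, CPS1, SCG2, FAM83A and TFPI2. NQO1, a quinone reductase and classic target of the oxidative stress factor NRF2, was at 4192 and 1421 RPKM in human and 2.71 and 3.45 in mouse. By rank NQO1 was at percentile 99.91 and 99.78 of the human and 54.36 and 50.74 of the mouse genes. Both tumors thus had the gene in human reads and hardly in mouse reads, and the same held for the next 3. TFPI2, a secreted inhibitor of serine proteases, was at 4137 and 7609.9 in human and 13.3 and 14.0 in mouse. CYP24A1, which inactivates vitamin D, was at 314 and 1419 in human with 0 mouse reads in both libraries. SCG2, a granin of secretory vesicles, was at 921 and 1645 RPKM in human and 5.23 and 0.153 in mouse. Its mouse gene reached 177 RPKM, but only in a brain tumor. The mouse genes of CPS1 and FAM83A were listed near 0. CPS1, the first enzyme of the urea cycle, was at 331 and 2293 in human and 1.52 and 0 in mouse; on RPM its difference was 2.52 in lung tumor 1, below the threshold. FAM83A was at 379 and 889 in human and 0 and 0.622 in mouse. Further genes that were cancer-higher on both scales with a mouse gene of at least 10 RPKM in lung tumor 2, chosen after the values were seen, were the phosphatase PTP4A1, the chaperone HSP90AA1 and TMSB10. TMSB10, an actin-binding thymosin, was among the most abundant human genes, at 17888 and 3188 RPKM against 134 and 66.3 in mouse.

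The list of NRF2 targets was not cancer-higher as a whole. Of 15 paired genes 4 were cancer-higher and 1 host-higher (3 and 0 also on RPM), with medians of 0.42 and 0.67. Beside NQO1 the cancer-higher ones were thioredoxin reductase TXNRD1 (1095 and 1679 RPKM in human, 38.2 and 32.4 in mouse), the export pump ABCC2 (52.6 and 178 against 0 and 0.305) and OSGIN1 (485 and 129 against 18.2 and 14.7). The sulfiredoxin SRXN1 was host-higher in RPKM, with -5.88 and -2.78 in RPM, at 265 and 81.3 RPKM in mouse and 0.388 and 1.64 in human. The pentose phosphate enzymes PGD, TALDO1 and TKT differed by 0.24, 0.42 and -0.39 in lung tumor 1 and by 1.23, 0.67 and -0.13 in lung tumor 2.

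Epithelial genes were shared between cancer and lung, with list medians of 2.65 in lung tumor 1 and -0.60 in lung tumor 2, the latter above 0 in RPM (0.08). ITGB4, the integrin chain of hemidesmosomes, was at 321 and 722 RPKM in human and 0.742 and 4.72 in mouse, and human reads were 94.8% (93.9 to 95.5%) of its total in lung tumor 2. Keratin 8 (KRT8) was at 906 and 831 RPKM in human and 14.0 and 53.6 in mouse, and desmoplakin (DSP) at 51.5 and 190.3 against 0 and 11.7. KRT18, the partner of KRT8, and the adhesion molecule EPCAM were present in the cancer cells of both tumors, at 341 and 469 and at 144 and 81.2 RPKM. ITGB4, KRT8 and DSP were the 3 cancer-higher genes of 19; KRT19 and KRT7 were host-higher. Of the mouse genes of this list 17 of 17 were higher in lung tumor 2, the library that also had more alveolar and airway transcripts. The mucin MUC1 was one of them: the human gene was at 918 and 260.2 RPKM and the mouse gene at 8.43 and 459, a difference of 6.61 in lung tumor 1 and -0.82 in lung tumor 2. E-cadherin (CDH1) was low in the cancer cells of lung tumor 1, at 4.39 RPKM, and at 27.3 in lung tumor 2, against 109.7 in mouse there.

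Cell cycle genes leaned to the cancer cells, and the list median stayed above 0 in both tumors under the 4 other scalings tried. Of 24 proliferation genes 8 were cancer-higher (4 also on RPM) and 0 host-higher, with medians of 2.58 and 3.35. Cyclin B1 (CCNB1), which drives entry into mitosis, was at 283 and 339 RPKM in human and 0 and 2.19 in mouse. RRM2, a subunit of ribonucleotide reductase, was at 251 and 645 in human and 10.4 and 11.6 in mouse, and UBE2C, a ubiquitin-conjugating enzyme of mitosis, at 279.6 and 186 against 10.7 and 4.33. These 3 were called cancer-higher, so that human values above the mouse values of the same library follow from the call. Not all were one-sided: PCNA, the replication clamp, was at 85.0 and 62.5 RPKM in human and 102.3 and 43.5 in mouse. In lung tumor 1 the mouse values of this list rest on 142 reads in all.

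Of the metabolic lists glycolysis differed most between the tumors. Of 15 paired sterol synthesis genes 4 were cancer-higher (2 also on RPM), led by FDPS at 399 and 472 RPKM in human and 0 and 4.14 in mouse. Of 17 glycolysis genes 4 were cancer-higher and 1, the hexokinase HK1, host-higher; the median was 0.11 in lung tumor 1 (-0.30 after centring) and 2.69 in lung tumor 2. Lactate dehydrogenase A (LDHA) was at 2159 and 1849 RPKM in human and at 2301 and 374 in mouse, and the glucose transporter SLC2A1 at 196 and 362 against 839 and 96.7. The human values lay within 2-fold of each other, and the mouse values differed by more between the tumors. Cancer-side glycolysis calls were GAPDH, PGK1, PGAM1 and LDHB, of which GAPDH and PGAM1 had mouse values near 0. The lactate exporter SLC16A3 was at 6.71 and 79.4 RPKM in human and 463 and 42.9 in mouse. Nuclear genes of the respiratory chain sat near balance, with 1 of 17 called and medians of 0.90 and 1.14.

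Interferon-stimulated genes, the antiviral response set, were higher in the cancer cells of lung tumor 2 than in those of lung tumor 1, and few were one-sided between cancer and host. Of 21 paired genes 0 were cancer-higher and 3 host-higher, with medians of -1.26 and -0.18. Of the 14 human genes that reached 10 RPKM in either library, 14 were higher in lung tumor 2, 7 by 3 or more. Of all 9355 human genes at that level 5762 were higher in lung tumor 2, 80 of them (0.855%) by 3 or more. Higher in lung tumor 1 by as much were 18 (0.192%), none of them on this list. OAS3, an antiviral enzyme that senses double-stranded RNA, was at 12.1 and 338 RPKM in human and 3.68 and 8.06 in mouse. STAT2, which carries the interferon signal to the nucleus, was at 32.3 and 239 in human and 7.67 and 22.9 in mouse, and IFI44 at 4.93 and 109 against 7.35 and 22.9. Human IFI44 reached 10 RPKM in lung tumor 2 only. Any gene that passes in this way is bound to be higher there, so the filter sets part of the count of 14. With 1 library each, the difference between the tumors has no replicate check. In the host 16 of 17 were higher in lung tumor 2, 0 by 3 or more, with a median of 1.46 against 2.94 in the cancer cells.

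**Figure D4:**
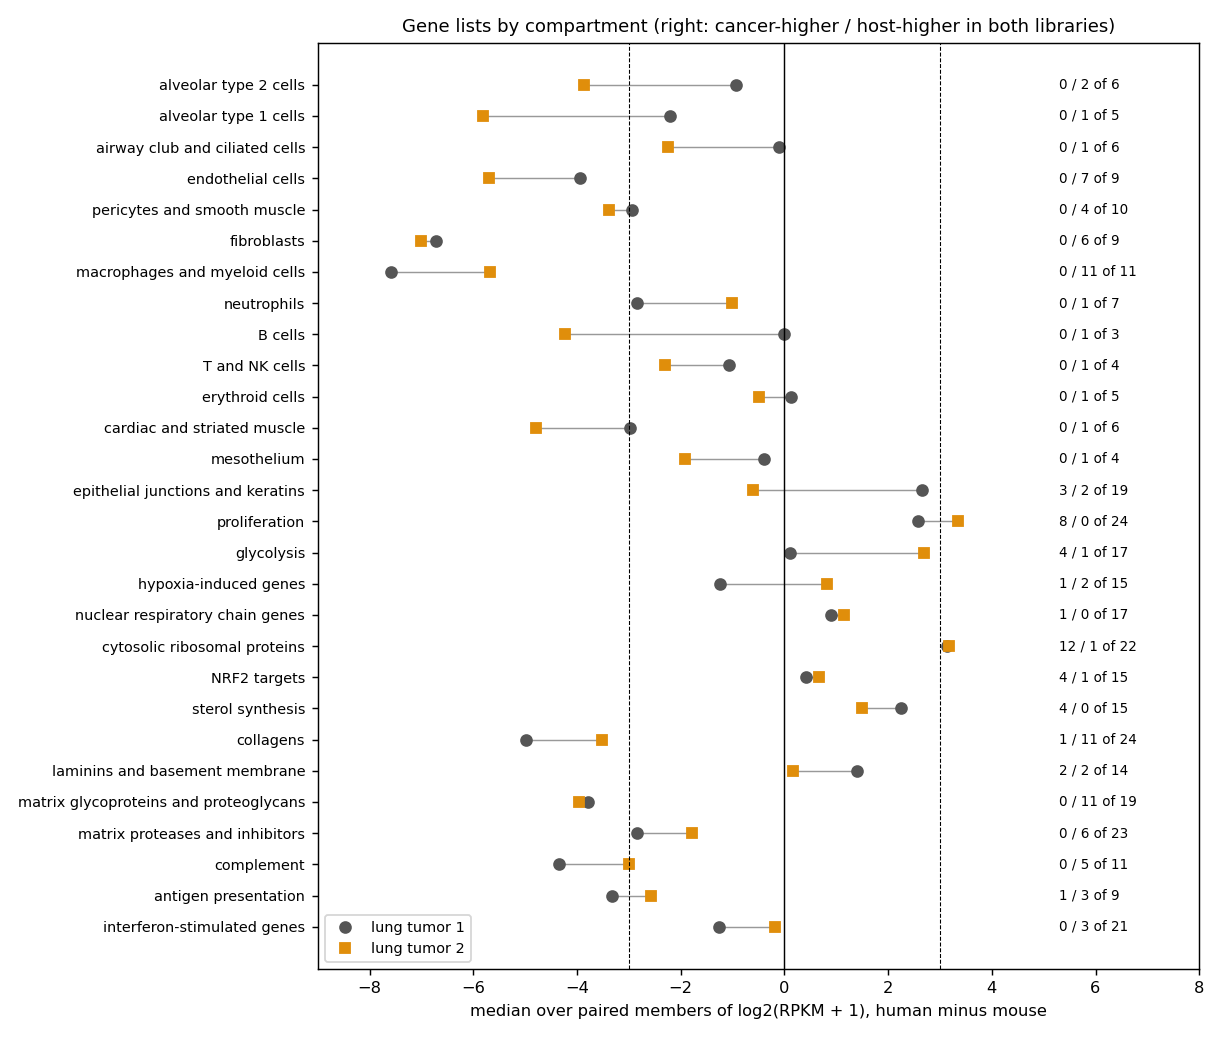
The x axis is the median over a list's paired genes of log2(RPKM + 1), human minus mouse, with a circle for lung tumor 1 and a square for lung tumor 2 and 1 row for each of the 28 lists; numbers at the right give the cancer-higher and host-higher genes and the paired genes. Dashed lines mark 3 either way; fibroblast, macrophage, endothelial, collagen and matrix glycoprotein lists lie at the left in both libraries, and proliferation and ribosomal protein genes at the right.

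Signals between the compartments were read from 79 ligand and receptor pairs chosen from general knowledge. Of 66 ligands with a partner, 6 were cancer-higher and 13 host-higher (3 and 10 also on RPM), or 9.09% and 19.7%. Of 46 receptors 2 were cancer-higher and 13 host-higher (0 and 11 on RPM), or 4.35% and 28.3%. The cancer-higher shares are near the 6.4% of all pairs, so they say nothing particular to ligands or receptors, and the genes are given for their own values. The medians were -0.87 and -1.24 for ligands and -1.38 and -1.70 for receptors. Of the 79 pairs, 6 had both sides host-higher, 0 had a cancer-higher ligand with a host-higher receptor and 0 the reverse. A gene with a row in 1 table only cannot be called, which limits these counts. A cancer-higher ligand stood with such a receptor in 3 pairs, and a cancer-higher receptor with such a ligand in 2.

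The cancer-higher ligands were AREG, DKK1, RSPO3, CCL20, IL6 and SEMA3A. Amphiregulin (AREG), a ligand of the epidermal growth factor receptor, was at 208 and 653 RPKM in human and 0 and 3.04 in mouse. Its receptor EGFR was present in both compartments, at 41.1 and 125 RPKM in human and 47.1 and 94.5 in mouse, a difference of -0.19 and 0.40; in RPM it was 1.42 and 2.04, and human reads were 98.7% and 74.5% of the gene's total. The ligand was thus nearly all human, while the balance of the receptor depended on the scale. DKK1, a secreted Wnt inhibitor, was at 157 and 557 in human and 1.74 and 0 in mouse. CCL20, a chemokine whose receptor CCR6 sits on lymphocytes, was at 11.1 and 30.6 in human and 0 and 0.466 in mouse. AREG, DKK1 and CCL20 were also called on RPM. Mouse Ccl20 was above 0 in 1 of the 5 libraries, with 1 recovered read in lung tumor 2. In lung tumor 1, 3 mouse reads are 7.90 RPKM for a mouse gene of median length. A mouse count of 0 there cannot establish an 8-fold difference from 11.1, and the RPM call rests on the same reads. With the lower side raised to 3 reads, 4 ligands were cancer-higher in place of 6. IL6 had 39 human reads in lung tumor 1 and 148 in lung tumor 2, at 7.63 and 50.4 RPKM, and 3 mouse reads in lung tumor 1 would have been worth more than its human value there.

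The cancer-higher receptors were MET, the receptor of hepatocyte growth factor, and IGF1R, the type 1 receptor of insulin-like growth factors. MET was at 120.2 and 559.7 RPKM in human and 4.76 and 33.9 in mouse, and IGF1R at 112 and 644 against 12.7 and 61.9. In RPM the differences were 1.39 and 0.84 for MET and 1.30 and 1.58 for IGF1R, below the threshold. Their ligands had a row only in the mouse table: Igf1 was at 43.2 and 28.4 RPKM and Hgf at 0 and 12.6. The remaining ligand of IGF1R in the list, IGF2, differed by -2.48 and -2.72.

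The host-higher ligands included vessel and inflammatory factors. The vessel peptide endothelin 1 (EDN1) was at 8.99 and 25.6 RPKM in mouse and 0.147 and 0.769 in human. The inflammatory cytokine IL1B was at 42.8 and 112 in mouse and 0 and 0.422 in human, and the chemokine CX3CL1 at 52.8 and 70.8 against 0.0451 and 0. CX3CR1, its receptor on monocytes, was host-higher too, at 19.6 and 15.4 RPKM in mouse and 0 and 0 in human. CCL5, EFNB2, FGF2, IL34, CXCL12, COL4A1, FN1, COL1A1, MIF and VEGFA were the other host-higher ligands. In lung tumor 1 several of these calls rest on few mouse reads: 2 for CCL5, 5 for EDN1, 7 for IL1B and 9 each for CX3CL1, IL34 and FGF2. The remaining host-higher ligands had from 17 (EFNB2) to 1019 (COL1A1). For CCL5, 2 mouse reads against 0 human reads already gave -3.27 in RPM.

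Host-higher receptors included those of fibroblasts, vessels and myeloid cells. PDGFRA and PDGFRB receive platelet-derived growth factors; the mouse genes were at 159 and 359 and at 88.0 and 52.4 RPKM, and the human genes below 1. Their ligand PDGFA came from both sides, with differences of 0.57 and -0.60. CSF1R, the receptor that sustains macrophages, was at 88.5 and 57.9 RPKM in mouse and 0.169 and 1.18 in human; of its ligands IL34 was host-higher (-5.60 and -4.40) and CSF1 was not called (-3.51 and -1.70). The chemokine CXCL12 and its receptor CXCR4 were both host-higher, CXCL12 at 75.5 and 216 RPKM and CXCR4 at 71.6 and 55.1 in mouse, with 0 human CXCR4 reads in both libraries. A count of 0 still allows 3 reads, which are 0.436 and 0.764 RPKM for a human gene of median length.

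VEGFA, the vessel growth factor, lay at the threshold on the host side, at 430.4 and 1212 RPKM in mouse and 50.5 and 150.0 in human, differences of -3.07 and -3.01. In RPM they were -2.65 and -2.57. Its receptor FLT1 was at 74.4 and 151 RPKM in mouse and 0.312 and 0.136 in human. SIRPA, the receptor by which macrophages read CD47, was host-higher (-6.19 and -5.37), while CD47 itself was at 29.6 and 24.7 RPKM in human and 115 and 98.6 in mouse. The integrin ITGA9, a receptor of tenascin C, was host-higher, at 195 and 246 RPKM in mouse and 0.104 and 0.541 in human. Some ligands differed between the tumors: the neutrophil chemokine CXCL2 was at 21.0 and 122 RPKM in human and 31.2 and 4.98 in mouse, and the monocyte chemokine CCL2 at 139 and 6.61 in human and 155 and 23.2 in mouse.

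**Figure D5:**
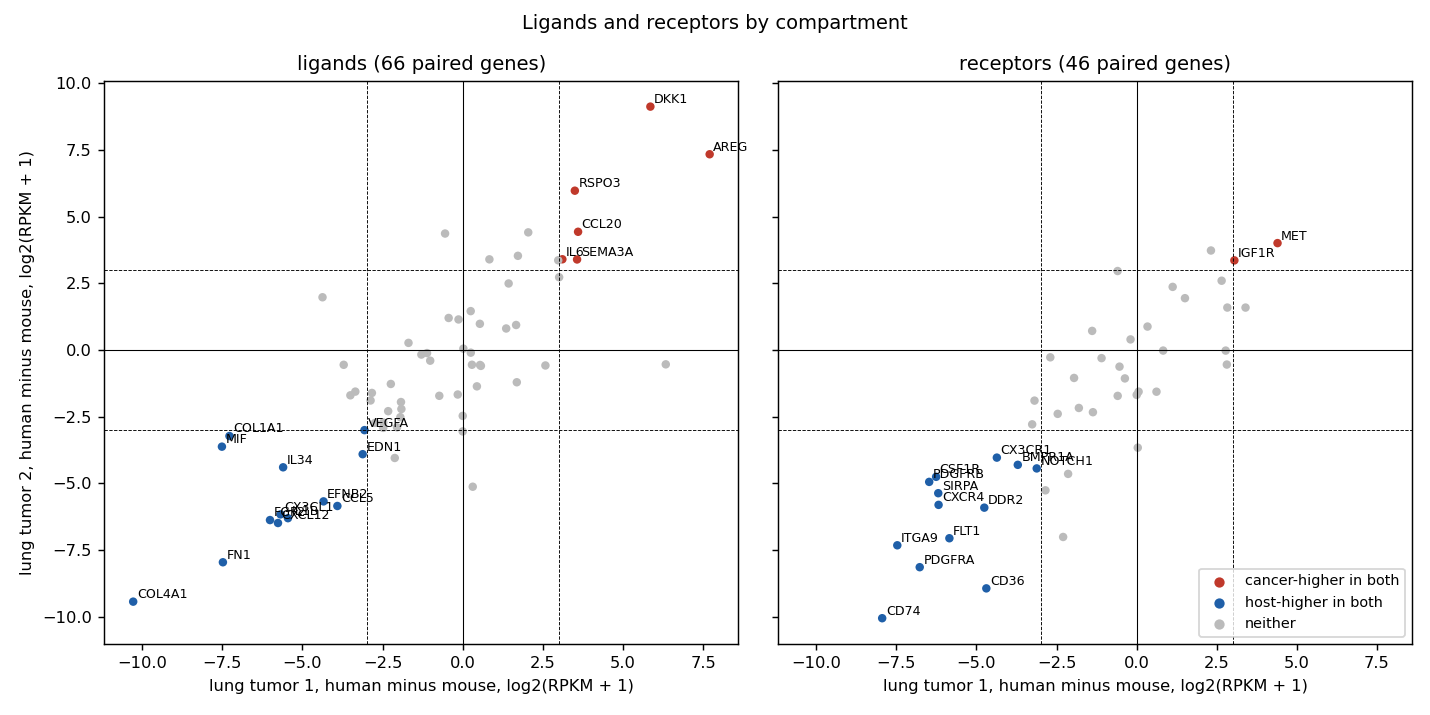
Each point is a ligand (left) or receptor (right), with the human minus mouse difference in log2(RPKM + 1) of lung tumor 1 on the x axis and of lung tumor 2 on the y axis. Points past the dashed lines at 3 in both libraries are named and coloured; most named points lie at the lower left, on the host side, and AREG and DKK1 lie farthest to the upper right.

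A few genes changed sides or stood in 1 table. EPS8L1, an adaptor of the actin cytoskeleton in epithelia, was cancer-higher in lung tumor 1 (4.38) and host-higher in lung tumor 2 (-3.23), and the muscle gene ANKRD2 was the reverse (-3.44 and 3.96); these were the 2 genes called in opposite directions. The mouse values moved more than the human ones: Eps8l1 was at 0 and 87.4 RPKM with 19.9 and 8.39 in human, and Ankrd2 at 84.3 and 0.168 with 6.84 and 17.1. Among human genes with no partner symbol the most abundant, by the lower of the 2 libraries, included mitochondrial genes, named differently in the mouse table, the metallothionein MT2A at 5123 and 1646 RPKM and the ferritin FTH1 at 4848 and 1388. Among mouse genes they included the macrophage lysozyme Lyz2 at 2777 and 4216 RPKM, the class I gene H2-D1 at 1653 and 1821, the hemoglobin gene Hbb-bs at 3811 and 1528, the class I gene H2-K1 at 1438 and 1251 and the proteoglycan Bgn at 1917 and 1074. Of the mouse symbols with no partner 1984 are symbols of human RefSeq genes, the surfactant gene Sftpc and Kdr among them. Neither table had a row at 0 in all 5 libraries, so a gene with no human row may be one with no human read, which was not tested.

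In the human genome (GRCh38, from RefSeq's annotation), MGP (ENSG00000111341.9) lies on chromosome 12 from 14880864 to 14885854, SPARC (ENSG00000113140.10) on chromosome 5 from 151661096 to 151686915 and COL3A1 (ENSG00000168542.12) on chromosome 2 from 188974373 to 189012746. NQO1 (ENSG00000181019.12) lies on chromosome 16 from 69709401 to 69726560, TFPI2 (ENSG00000105825.11) on chromosome 7 from 93885396 to 93890753 and ITGB4 (ENSG00000132470.13) on chromosome 17 from 75721459 to 75757818. All 6 are protein-coding.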

How the data were processed

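RNA-seq of 2 lung tumors was used, each with a human and a mouse value per gene. The deposited values are RPKM made by the authors against human build hg38 (GRCh38) and mouse build mm10 (GRCm38), per the submitters' processing notes; for the aligner, the counter, the gene lengths and the way reads were sorted between species, nothing is stated: not given in the sources used here. All columns were mapped to samples by their labels (0 unmapped). Genes were joined by symbol after writing both in capitals, and symbols used more than once in a table were left out. A pseudocount of 1 was added before log2, and a difference of 3 was the call. Across the 5 libraries a gene's RPKM stood in whole-number ratios, from which read numbers were recovered for all 25524 human and 24628 mouse genes (tolerance 1e-06). They are lower bounds, since a common divisor is lost, and the total of recovered reads is the depth given for each library. Genes detected in a single library (4393 human, 3995 mouse) leave their read number open.

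The tables were scaled separately, so no test was made and no p-value is given; p-values would in any case measure only the spread between 2 samples that the labels do not describe as separate animals. Gene lists and ligand and receptor pairs came from general knowledge, and members, lists and threshold were chosen with earlier results of these data known. Named were the 15 called genes a direction with the largest averaged difference, at least 10 RPKM and 10 reads on the higher side in each library; up to 4 called members and the 2 most abundant members of a list; ligands and receptors; genes called in opposite directions; the 10 most abundant genes a species with no partner; and 2 genes on each side of the threshold. Other genes named were chosen after their values were seen. The scripts were tested on simulated data and used Python 3.11.15, numpy 2.4.6, pandas 2.3.3, scipy 1.17.1 and matplotlib 3.10.9. No sequences are printed; mouse coordinates were not used here.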

Additional observations from a re-analysis of the deposited data

How the results depend on the processing

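No paired analysis was possible because the results come from no test and only 1 group, the lung tumors, was used. Counts of called genes depended on the choices below, and the cause was not tested. A pseudocount of 0.1 gave 1205 host-higher genes in both tumors, 2376 cancer-higher and 1737 host-higher in lung tumor 1 and 1933 host-higher in lung tumor 2. A pseudocount of 5 gave 441 cancer-higher and 270 host-higher in both, 713 and 504 in lung tumor 1, 766 and 566 in lung tumor 2, 3 cancer-higher and 7 host-higher ligands and 1 cancer-higher receptor. Centring gave 535 cancer-higher in both, 788 in lung tumor 2 and 1 receptor; quantile normalization and scaling to the same sum also gave 1 cancer-higher receptor. A threshold of 2 gave 1889 cancer-higher and 1320 host-higher in both, 2823 and 1962 in lung tumor 1, and 2581 and 2119 in lung tumor 2. Requiring 10 reads on the higher side in each of the 2 libraries gave 847 cancer-higher and 473 host-higher in both. In the single libraries it gave 700 host-higher in lung tumor 1 and 562 in lung tumor 2. Percentile differences past 50 points gave 68 cancer-higher and 222 host-higher in both, 354 and 378 in lung tumor 1, and 146 and 451 in lung tumor 2. With either library left out the counts were 1288 to 1482 cancer-higher and 1076 to 1267 host-higher, and cancer-higher ligands were 8 to 11.

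Alternatives chosen after the data were seen were RPM, scaling to the same sum, a floor of 3 reads and a countable mouse gene. RPM gave 506 cancer-higher in both, 749 in lung tumor 2, 3 ligands and 0 receptors, and turned the difference of NOTCH3, lung tumor 1, from 3.40 to -0.093. Raising the lower side to 3 reads gave 576 cancer-higher and 643 host-higher in both and 784 cancer-higher in lung tumor 1. Mouse genes that reached 10 RPKM in a deeper library gave 420 cancer-higher in both, 858 in lung tumor 1 and 689 in lung tumor 2. Taking off 0.5% of the other species' reads kept all these counts within 1.5 times. Depth limits the mouse side of lung tumor 1 most.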

Other observations

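Some genes listed as markers of host cells were also made by the cancer cells. S100A9, a calcium-binding protein typical of neutrophils, was at 408 and 601 RPKM in human and 286 and 225 in mouse in lung tumors 1 and 2. Its partner S100A8 was mainly in the mouse table, at 146 and 112 RPKM against 18.9 and 13.0 in human. Mesothelin (MSLN), a surface protein of mesothelium, was at 347 and 209 RPKM in human and 59.8 and 53.5 in mouse, whereas WT1, a transcription factor of mesothelium, was at 42.0 and 12.8 in mouse and 0.185 and 0.323 in human.

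B cell genes were among the mouse genes that stood higher in lung tumor 2, 5 of 5 that reached 10 RPKM in either library. Jchain, which joins secreted antibodies, was at 13.5 RPKM in lung tumor 1 and 46.5 in lung tumor 2. The antibody gene Igkc was high in both, at 586 and 908 RPKM. The natural killer protease Gzma was at 4.80 and 53.3. In lung tumor 1 the values of Jchain and Gzma rest on 6 and 1 reads.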
